A study of Mus musculus with 6 samples.

Results

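The E2F and DP transcription factors were followed in RNA-seq libraries of mouse muscle satellite cells (SCs), the resident stem cells of skeletal muscle, with and without deletion of NF-YA. The 10 genes E2f1 to E2f8, Tfdp1 and Tfdp2 were taken by their symbols from the 35976 genes of the deposited tables. All 10 were present in every library and all 10 passed the filter on low counts, which left 17348 genes to be tested. NF-YA gives the trimeric factor NF-Y its contact with DNA at the CCAAT box found in front of many cell cycle genes.

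The study compared 3 NF-YA cKO with 3 NF-YA fl/fl libraries. Both genotypes carry floxed NF-YA alleles, and both received tamoxifen (20 mg/ml in the labels, at an age of 5 to 7 weeks). The 20 mg/ml is the concentration of the solution and not a dose, and the methods of the study give an older range of ages. The NF-YA cKO mice also carry Pax7-CreERT2, a Cre recombinase driven by the SC gene Pax7 and active only after tamoxifen, whereas the NF-YA fl/fl controls have no Cre. Hindlimb SCs were purified by magnetic depletion of cells bearing CD31, CD45, CD11b or Sca1 and were kept in growth medium before RNA extraction. The labels number the libraries within each genotype without naming a mouse for each, so that p-values measure the spread between these libraries.

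E2F proteins bind DNA mostly as dimers with a DP protein and time the expression of the genes for DNA replication. E2F1, E2F2 and E2F3 activate these genes once cyclin-dependent kinases have released them from the retinoblastoma protein RB. E2F4 and E2F5 act mainly with the related pocket proteins p107 and p130 to silence them, E2F6 represses without a pocket protein, and the atypical E2F7 and E2F8 repress without a DP partner. In the muscle lineage RB and p130 hold E2F target genes silent after the cell cycle exit that accompanies differentiation.

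The letters around start sites of the E2f and Tfdp genes were searched first, since NF-Y recognizes CCAAT and E2F proteins often control their own genes. RefSeq start sites (GRCm38.p6, the patch release of the mm10 build of the files) gave 12 windows for 8 of the 10 genes, from 250 bases before to 50 bases after each start site. E2f4 and E2f5 had no entry. CCAAT was searched on both strands, and so were TTTCGCGC, TTTGGCGC, TTTCCCGC and TTTGCCGC, which are common E2F sites. CCAAT was found in 5 of the 12 windows, against 37.4% of all 32851 windows in the table and 37.2% of the windows of tested genes. An E2F site was found in 5 of the 12 windows, against 2.26% of all windows and 3.4% of those of tested genes. The pair of Tfdp1 windows overlap and share 1 site, so that these windows are not independent of each other, and no CCAAT overlapped an E2F site. A match is a description of the letters and not of a bound site.

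The 250 bases before 5 start sites are shown because they hold the matches, or, for the downstream start of E2f3, because they hold none. CCAAT, or its complement ATTGG, and the E2F sites are in capitals, and each run reads 5′ to 3′ on the strand of the gene. The upstream start of E2f3 (chr13:29986064-29986313, minus strand) had 3 CCAAT matches, at 145, 109 and 81 bases before the start counted to the outer base, and TTTCCCGC on the opposite strand at 11 bases before it. The downstream start, in the first intron of the longer E2f3 transcript (chr13:29984392-29984641, minus strand), had neither. E2f7 (chr10:110745189-110745438, plus strand) had 2 CCAAT matches and 1 E2F site. E2f2 (chr4:136172024-136172273, plus strand) had 1 CCAAT match, and its TTTGGCGC lay after the start and is not shown. Tfdp1 (chr8:13338501-13338750, plus strand) had 1 E2F site, TTTCGCGC on the opposite strand, and no CCAAT.
E2f3, upstream start: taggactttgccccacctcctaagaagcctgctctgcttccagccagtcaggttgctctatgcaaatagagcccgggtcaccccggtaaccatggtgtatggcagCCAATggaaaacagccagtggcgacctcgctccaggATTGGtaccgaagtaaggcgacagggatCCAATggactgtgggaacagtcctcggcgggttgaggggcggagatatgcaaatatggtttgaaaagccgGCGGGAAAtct
E2f3, downstream start: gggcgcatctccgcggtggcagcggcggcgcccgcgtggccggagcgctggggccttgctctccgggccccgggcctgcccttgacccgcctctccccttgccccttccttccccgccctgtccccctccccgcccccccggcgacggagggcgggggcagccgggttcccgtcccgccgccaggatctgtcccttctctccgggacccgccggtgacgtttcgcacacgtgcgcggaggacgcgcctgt
E2f7: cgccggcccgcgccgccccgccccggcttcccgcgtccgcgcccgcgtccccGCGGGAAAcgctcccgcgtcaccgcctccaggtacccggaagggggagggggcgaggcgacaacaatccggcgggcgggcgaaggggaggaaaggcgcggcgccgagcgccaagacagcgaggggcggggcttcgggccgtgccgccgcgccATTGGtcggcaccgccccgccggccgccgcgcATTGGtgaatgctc
E2f2: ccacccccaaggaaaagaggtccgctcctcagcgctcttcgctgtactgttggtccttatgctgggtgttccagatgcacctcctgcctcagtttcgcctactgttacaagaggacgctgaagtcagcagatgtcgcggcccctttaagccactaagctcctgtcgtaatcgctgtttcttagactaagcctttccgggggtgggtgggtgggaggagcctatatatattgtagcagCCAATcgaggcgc
Tfdp1: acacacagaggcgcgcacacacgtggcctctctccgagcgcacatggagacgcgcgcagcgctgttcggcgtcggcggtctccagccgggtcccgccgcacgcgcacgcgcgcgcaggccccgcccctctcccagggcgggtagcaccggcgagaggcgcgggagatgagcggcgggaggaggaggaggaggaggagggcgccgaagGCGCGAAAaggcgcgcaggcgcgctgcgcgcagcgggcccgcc

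E2f8 had 1 CCAAT match on the opposite strand. A second E2f2 start (136180782), which lies inside the gene, had 3 CCAAT matches and no E2F site. The windows of E2f6 and Tfdp2 held neither motif. Both Tfdp2 start sites (96258705 and 96259248) lie inside the gene, whose GENCODE start is at 96196275. The letters in front of that start were not searched. The E2f1 window held neither motif, but its start site (154569426) lies inside the gene, after the GENCODE starts of both E2f1 transcripts (154569892 and 154569720), so that the letters in front of those starts were not searched.

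The targeted gene was checked first. Nfya as a whole was at 27.04, 28.5 and 26.98 CPM (counts relative to the normalized library size) in the NF-YA cKO libraries and at 23.4, 25.7 and 36.9 CPM in the NF-YA fl/fl libraries. The total of the gene therefore does not separate the genotypes, with a log2 fold change of -0.06 and an FDR of 0.814 in edgeR's quasi-likelihood test. The reference transcript that the authors added for the deleted allele took 22.3%, 26.4% and 34.2% of the expected counts of Nfya in NF-YA cKO and 0% in each NF-YA fl/fl library. Library totals ranged from 26936230 to 41118984 expected counts. The genotypes also differed in cell state and in other cells. Of 8 tested genes of differentiated muscle all 8 were lower in NF-YA cKO, with a summed level of 622 to 1395 CPM against 42294 to 50691 CPM. Among these, Myog was still present at 10.7 to 31.4 CPM in NF-YA cKO, against 584 to 1450 CPM in NF-YA fl/fl. All 10 macrophage genes were higher, with a summed level of 141 to 285 CPM against 5.67 to 12.5 CPM. At an FDR under 0.05, 19.7% of all tested genes were higher and 18.9% lower. By this rule 4 of 5 Schwann cell genes rose (50.5 to 59.8 CPM in sum against 15.2 to 67.4 CPM). Of 5 endothelial genes 2 rose (13.1 to 18.0 CPM against 4.14 to 8.06 CPM). Of 5 genes of fibro-adipogenic progenitors 2 rose (782 to 938 CPM against 717 to 1422 CPM), and the other 3 had negative log2 fold changes. Of 4 tested pericyte genes 2 fell (121 to 175 CPM against 168 to 313 CPM). Of the 7 SC and myoblast genes 2 rose and 3 fell at an FDR under 0.05. Pax7, which rose, was at 145 to 201 CPM in the NF-YA cKO libraries and at 73.5 to 105 CPM in the NF-YA fl/fl libraries. Xist was at 836 to 852 CPM in the NF-YA cKO libraries and at 0.306 to 0.475 CPM in the NF-YA fl/fl libraries, and the Y-linked Ddx3y at 0.047 to 0.0957 CPM and 80.9 to 88.6 CPM, although the methods describe male mice. Genotype and the expression of sex-linked genes therefore cannot be told apart. The part of these differences in the E2F results was not tested. In bulk libraries, fewer cells of a type and less RNA per cell cannot be told apart.

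None of the 10 genes met the thresholds of the study, an FDR under 0.01 with a log2 fold change above 1 or below -1. Among all tested genes, 4.65% were higher and 7.67% lower by this rule. At an FDR under 0.05 with no limit on the fold, E2f5 and Tfdp1 rose and no member fell, against 19.7% of tested genes higher and 18.9% lower. E2f1, E2f5 and Tfdp1 had no overlap between the libraries of both genotypes, all being higher in NF-YA cKO, against 29.1% of tested genes higher and 26.2% lower. The members thus moved about as often as genes in general or less. With an unadjusted p under 0.05 in edgeR the count was 3 higher (E2f1, E2f5 and Tfdp1) and 1 lower (E2f2), against 24.6% and 24.1% of tested genes. DESeq2 called none by the thresholds of the study (5.68% of genes higher, 10.4% lower) and, at an FDR under 0.05, 2 higher (E2f5 and Tfdp1) and 1 lower (E2f2), against 20.8% and 21.4%. At that limit limma called none, against 8.92% higher and 13.1% lower on log2(TPM + 1) and 9.36% and 14.2% on log2(TPM + 0.1). The median log2 fold change of the 10 genes was 0.09, with 5 above and 5 below 0, against -0.02 over all tested genes.

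**Figure D1:**
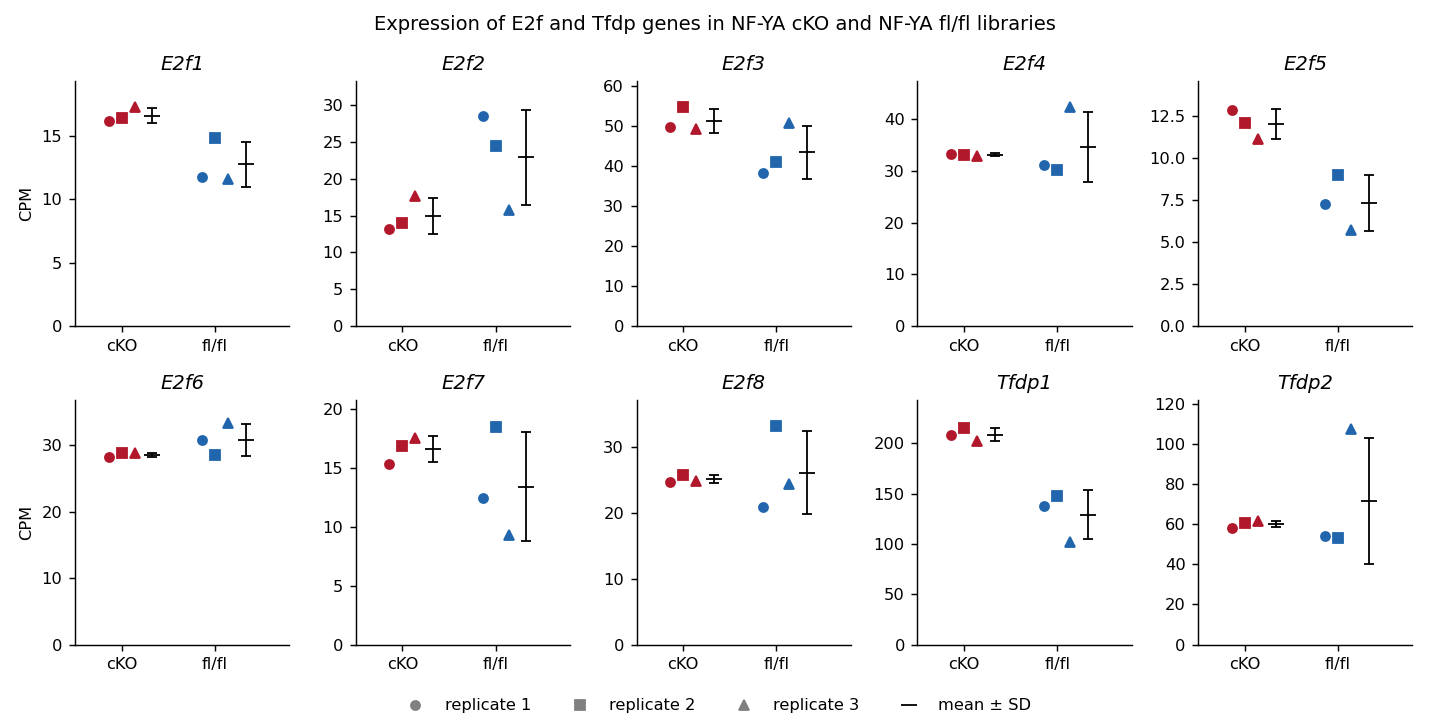
CPM of each member (vertical axes, each from 0) in the 3 NF-YA cKO (red) and 3 NF-YA fl/fl (blue) libraries, with replicate numbers as symbols and mean ± SD in black. For E2f1, E2f5 and Tfdp1 all red points lie above all blue points, and the spread is wider in NF-YA fl/fl in all 10 panels.

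E2f1, which besides S phase genes can activate genes of apoptosis, lies on chromosome 2 (154559407 to 154569892, minus strand). It was at 16.1, 16.4 and 17.2 CPM in the NF-YA cKO libraries and at 11.8, 14.8 and 11.6 CPM in the NF-YA fl/fl libraries. All NF-YA cKO libraries were above all NF-YA fl/fl libraries, the nearest being replicate 2 of NF-YA fl/fl. The log2 fold change of 0.38 (SE 0.14) had an FDR of 0.0680 in edgeR's test and did not pass. Without replicate 2 of NF-YA fl/fl it was 0.49 with an FDR of 0.0155. On the TPM scale the libraries overlapped, at 7.18, 6.19 and 7.39 TPM against 5.17, 7.95 and 4.24 TPM.

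E2f2, an activator with a role in the expansion of progenitor cells, lies on chromosome 4 (136172394 to 136196057, plus strand). It was at 13.1, 13.9 and 17.6 CPM in the NF-YA cKO libraries and at 28.5, 24.4 and 15.8 CPM in the NF-YA fl/fl libraries. Replicates 1 and 2 of NF-YA fl/fl were well above all NF-YA cKO libraries, while replicate 3 of NF-YA fl/fl lay within their range. E2f2 was the only activator with a negative log2 fold change, -0.62 (SE 0.24, FDR 0.0763). It passed an FDR of 0.05 with DESeq2 (0.0386) and without replicate 3 of NF-YA fl/fl, where the log2 fold change was -0.83 with an FDR of 0.00488.

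E2f3, the most abundant activator, lies on chromosome 13 (29906575 to 29986063, minus strand). It was at 49.6, 54.7 and 49.3 CPM in the NF-YA cKO libraries and at 38.3, 40.98 and 50.8 CPM in the NF-YA fl/fl libraries. Replicate 3 of NF-YA fl/fl lay among the NF-YA cKO libraries and the other two below them. The log2 fold change was 0.24 (SE 0.13, FDR 0.179), and without replicate 3 of NF-YA fl/fl it was 0.36 with an FDR of 0.0125. The gene total hides opposite differences of its transcripts, which are given further on.

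E2f4, the main repressor of resting cells, lies on chromosome 8 (105297663 to 105305370, plus strand). It was at 33.4, 33.2 and 32.9 CPM in the NF-YA cKO libraries and at 31.2, 30.2 and 42.4 CPM in the NF-YA fl/fl libraries. The NF-YA cKO libraries were nearly equal and fell inside the range of NF-YA fl/fl, whose replicate 3 stood apart. The log2 fold change of -0.06 (SE 0.15, FDR 0.769) turned to 0.11 without that library.

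E2f5, which shares its pocket protein partners with E2f4, lies on chromosome 3 (14578641 to 14606309, plus strand). It was at 12.9, 12.1 and 11.1 CPM in the NF-YA cKO libraries and at 7.30, 9.01 and 5.70 CPM in the NF-YA fl/fl libraries. The genotypes did not overlap, with the lowest NF-YA cKO library still above replicate 2 of NF-YA fl/fl. E2f5 rose 1.64-fold (log2 fold change 0.71, SE 0.19, FDR 0.0266), the largest change among the E2f genes. Without 1 of the NF-YA cKO replicates 1, 2 or 3 the FDR was 0.113, 0.108 and 0.0749, without replicate 1 of NF-YA fl/fl it was 0.0750, and with limma it was 0.132 or 0.141. It stayed under 0.05 without replicate 2 or 3 of NF-YA fl/fl, at 0.0106 and 0.0196.

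E2f6, whose protein brings the Polycomb complex PRC1.6 to E2F sites, lies on chromosome 12 (16810963 to 16839742, plus strand). It was at 28.2, 28.8 and 28.8 CPM in the NF-YA cKO libraries and at 30.7, 28.5 and 33.3 CPM in the NF-YA fl/fl libraries. The libraries overlapped, and E2f6 had the narrowest spread of all members in NF-YA fl/fl. Its log2 fold change was -0.11 (SE 0.10, FDR 0.412).

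E2f7 and E2f8, the atypical repressors that are themselves switched on in S phase and close the E2F wave, lie on chromosome 10 (110745439 to 110787384, plus strand) and chromosome 7 (48866429 to 48881596, minus strand). E2f7 was at 15.3, 16.8 and 17.6 CPM in the NF-YA cKO libraries and at 12.5, 18.4 and 9.33 CPM in the NF-YA fl/fl libraries. E2f8 was at 24.6, 25.8 and 24.8 CPM in the NF-YA cKO libraries and at 20.8, 33.1 and 24.3 CPM in the NF-YA fl/fl libraries. For both genes replicate 2 of NF-YA fl/fl was the highest of all 6 libraries, and the genotypes overlapped. The log2 fold change of E2f7 was 0.31 (SE 0.24, FDR 0.354), and 0.60 with an FDR of 0.0330 without that library. For E2f8 it was -0.06 (SE 0.18, FDR 0.820), turning to 0.14 without that library.

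Tfdp1, the common DNA-binding partner of E2F1 to E2F6, lies on chromosome 8 (13338751 to 13378448, plus strand). It was at 208, 216 and 202 CPM in the NF-YA cKO libraries and at 138, 148 and 102 CPM in the NF-YA fl/fl libraries. All NF-YA cKO libraries were above all NF-YA fl/fl libraries, with replicate 3 of NF-YA fl/fl the lowest. Tfdp1 rose 1.62-fold (log2 fold change 0.69, SE 0.15, FDR 0.0108). The FDR was 0.0502 and 0.0631 without replicate 1 or 2 of NF-YA cKO and 0.116 or 0.122 with limma.

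Tfdp2, the second DP gene, lies on chromosome 9 (96196275 to 96323646, plus strand). It was at 58.2, 60.6 and 61.4 CPM in the NF-YA cKO libraries and at 54.0, 53.0 and 107.5 CPM in the NF-YA fl/fl libraries. A single library, replicate 3 of NF-YA fl/fl, was above all others, and the other two NF-YA fl/fl libraries were below all NF-YA cKO libraries. The log2 fold change of -0.25 (SE 0.27, FDR 0.498) turned to 0.16 with an FDR of 0.0937 without that library.

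The spread between libraries differed between the genotypes for every member. Relative to its mean, the SD was larger in NF-YA fl/fl for all 10 genes, as it was for 82% of all tested genes. The highest NF-YA fl/fl library exceeded the lowest 2.03-fold for Tfdp2, 1.97-fold for E2f7 and 1.17-fold for E2f6. Among NF-YA cKO libraries the same ratio was 1.35 for E2f2 and 1.01 for E2f4, the extremes there.

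To compare genes with each other, TPM, which takes the length of the transcripts into account, was used. In NF-YA cKO, Tfdp1 led with 93.4 TPM, followed by E2f4 at 19.4, E2f6 at 13.4 and E2f3 at 11.5 TPM, with no overlap of their libraries. Tfdp2 (8.89 TPM), E2f5 (8.45 TPM), E2f8 (7.80 TPM) and E2f1 (6.92 TPM) came next, and the libraries of neighbours in this order overlapped. E2f2 (3.83 TPM) and E2f7 (3.30 TPM) were lowest and overlapped each other. In NF-YA fl/fl, Tfdp1 (63.0 TPM) and E2f4 (21.1 TPM) also led, and from E2f6 (15.3 TPM) down to E2f7 (2.96 TPM) each gene overlapped the next. The repressor E2f4 was thus the most abundant E2f gene in both genotypes, and the DP genes together were above all activators together.

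Activator and repressor genes were then set against each other. E2f1 to E2f3 summed to 22.6, 20.6 and 23.5 TPM in NF-YA cKO and to 22.3, 28.3 and 18.3 TPM in NF-YA fl/fl. E2f4 to E2f8 summed to 55.9, 48.0 and 53.0 TPM in NF-YA cKO and to 49.2, 65.1 and 46.8 TPM in NF-YA fl/fl. In both classes the NF-YA cKO libraries fell inside the range of the NF-YA fl/fl libraries. The activators made up 29.8% ± 0.956 (SD, n = 3) of all E2f TPM in NF-YA cKO and 29.8% ± 1.58 in NF-YA fl/fl, a difference of -0.02 percentage points. Leaving out 1 library moved this difference between -0.90 (without replicate 3 of NF-YA fl/fl) and 0.64 (without replicate 1 of NF-YA fl/fl) percentage points. Tfdp1 and Tfdp2 summed to 102 TPM ± 6.48 in NF-YA cKO and 73.9 TPM ± 20.5 in NF-YA fl/fl.

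The balance within each pair or trio of related genes was described next. These shares were chosen after the values were seen and are given as a description. For that reason they are not ranked against the share of the classes. How often such shares overlap for other related genes was not measured. Of single tested genes, 29.1% were higher and 26.2% lower in NF-YA cKO with no overlap. E2f2 made up 15.7%, 15.7% and 20.08% of the activator TPM in NF-YA cKO and 35.0%, 29.1% and 20.13% in NF-YA fl/fl. All NF-YA cKO libraries were lower, although replicate 3 of both genotypes nearly met. E2f5 made up 31.6%, 30.7% and 28.6% of the summed TPM of E2f4 and E2f5 in NF-YA cKO, above the 21.7%, 25.3% and 13.2% in NF-YA fl/fl. E2f7 made up 28.5%, 29.3% and 31.2% of the summed TPM of E2f7 and E2f8 in NF-YA cKO, above the 27.4%, 26.1% and 19.7% in NF-YA fl/fl. Tfdp1 made up 91.6%, 91.5% and 90.9% of the DP TPM in NF-YA cKO and 88.3%, 89.4% and 73.8% in NF-YA fl/fl. In all 4 shares replicate 3 of NF-YA fl/fl was an extreme of its genotype, being the lowest.

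**Figure D2:**
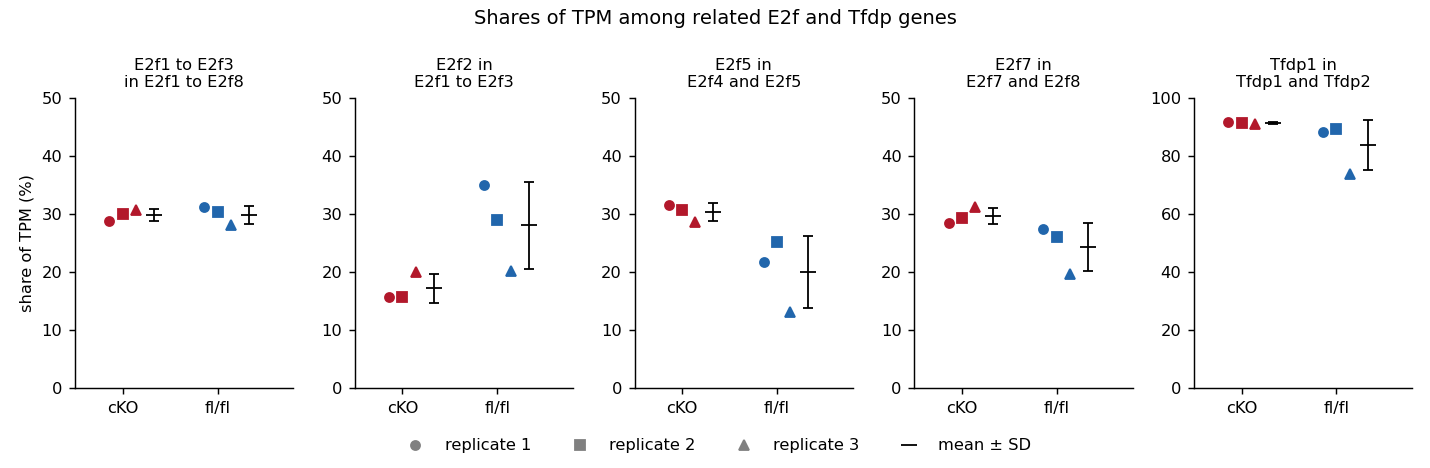
Share of TPM (vertical axes, in percent) of the activators among all E2f genes, and of 1 gene within each group of related genes, per NF-YA cKO (red) and NF-YA fl/fl (blue) library with mean ± SD. The activator share overlaps between genotypes, at 29.8% in both. The other 4 shares do not overlap, but they were chosen after the values were seen, and no rate was taken for such shares of other genes.

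The shares of single transcripts in their gene were compared next. RSEM splits reads between transcripts of a gene by an estimate, so that these shares are less certain than the gene totals. Of the 9 members with several transcripts, the leading one (the transcript with the largest mean share) did not overlap between the genotypes for 5, namely E2f1, E2f2, E2f3, Tfdp1 and Tfdp2. For each of these the two-sided exact permutation test gave p = 0.1, the smallest that 3 against 3 libraries allow. Among the 10821 tested genes with such a leading transcript, 21.6% had no overlap in either direction. Of 24 member transcripts with at least 10% of the TPM of their gene, 10 in 7 genes did not overlap, against 16.7% of 30431 such transcripts of all tested genes. Genes with 1 transcript, like E2f4, are in both counts and cannot separate, and their part in each count was not matched. In E2f1 and E2f2, with 2 transcripts each, the share of 1 transcript fixes the other, so that these are not independent.

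E2f3 showed the largest difference. NM_010093.3, which starts at the upstream promoter printed above (position 29986063) and encodes the longer E2F3a, took 53.3%, 52.7% and 60.5% of E2f3 TPM in NF-YA cKO and 30.3%, 32.1% and 25.5% in NF-YA fl/fl. In TPM this transcript was at 6.36 ± 0.5003 (SD, n = 3) in NF-YA cKO and 3.11 ± 0.670 in NF-YA fl/fl, with no overlap. NM_001289920.1, which starts at the downstream promoter (position 29984391) and encodes the shorter E2F3b, took 29.0%, 30.7% and 25.0% against 44.9%, 36.4% and 24.5%, and its libraries overlapped. The predicted XM_011244277.2 took 9.32%, 7.94% and 8.82% in NF-YA cKO and 21.6%, 25.7% and 47.9% in NF-YA fl/fl. The upstream window, with 3 CCAAT matches, belongs to NM_010093.3, and the downstream window, with none, to NM_001289920.1. XM_011244277.2 had no annotated start site and so no window. A link between CCAAT matches and these shares was not tested.

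In E2f1, NM_007891.5 took 57.7%, 57.2% and 65.8% of the TPM in NF-YA cKO and 49.1%, 47.5% and 46.8% in NF-YA fl/fl. In E2f2, NM_001305399.1 took 54.6%, 56.0% and 60.9% in NF-YA cKO and 63.6%, 67.3% and 72.0% in NF-YA fl/fl. The leading transcript was thus favoured in NF-YA cKO for E2f1 and in NF-YA fl/fl for E2f2. E2f6 had a noncoding form, NR_027677.1, at 28.1%, 26.6% and 24.5% in NF-YA cKO against 17.8%, 14.6% and 17.0% in NF-YA fl/fl, while the leading coding transcript overlapped (42.3% ± 7.30 against 55.8% ± 7.76, exact permutation p = 0.2). Tfdp1 NM_001291765.1 took 42.2%, 40.5% and 42.8% against 30.0%, 33.6% and 37.0%. In Tfdp2, whose reads are split over 28 transcripts, the predicted XM_006510962.3 took 27.5%, 31.0% and 35.1% against 3.56%, 7.81% and 22.0%. The shares of the leading transcripts of E2f5, E2f7 and E2f8 overlapped, with exact permutation p of 0.3, 0.4 and 1, and E2f4 had a single transcript. In TPM, as against shares, the leading transcripts of E2f1, E2f2, E2f7, E2f8 and Tfdp2 overlapped. Those of E2f3, E2f5 and Tfdp1 were higher and that of E2f6 lower in NF-YA cKO with no overlap. No rate over all genes was taken for the TPM of transcripts.

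**Figure D3:**
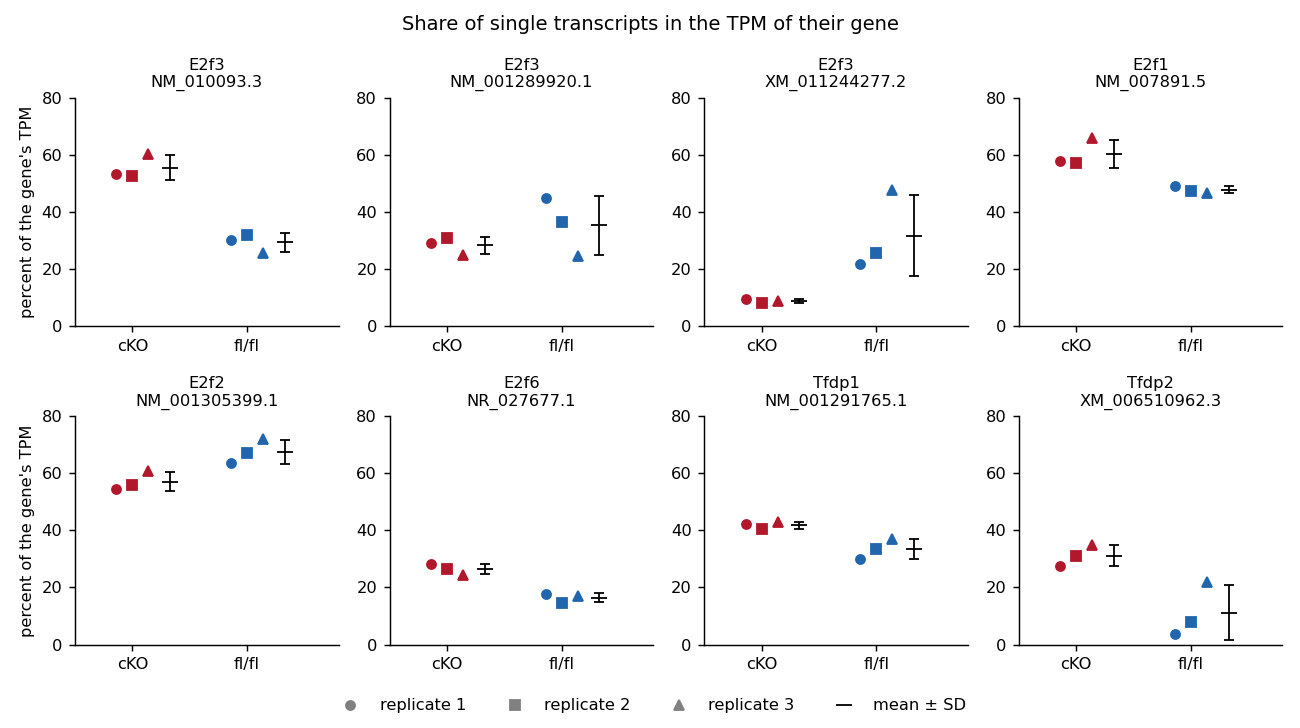
Percent of the TPM of its gene (vertical axes) taken by single transcripts in each NF-YA cKO (red) and NF-YA fl/fl (blue) library, with mean ± SD. All panels but that of E2f3 NM_001289920.1 show no overlap between genotypes, and E2f3 NM_010093.3 stands at 55.5% in NF-YA cKO against 29.3% in NF-YA fl/fl.

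The genes around the E2F proteins were read from the same fit. Of the 3 pocket proteins, Rb1 fell, Rbl1 rose and Rbl2 did not pass the test. Rb1, which encodes RB, was at 29.2, 30.5 and 36.7 CPM in the NF-YA cKO libraries and at 105.7, 87.5 and 140.6 CPM in the NF-YA fl/fl libraries (log2 fold change -1.79, SE 0.19, FDR 0.00101), the only pocket protein past the thresholds of the study. Rb1 was called in all 13 alternative fits. Rbl1, which encodes p107, was at 49.7, 50.05 and 48.4 CPM against 25.0, 32.9 and 19.3 CPM (log2 fold change 0.94, FDR 0.00862), and was called by the thresholds of the study without replicate 2 of NF-YA fl/fl. Rbl2, which encodes p130, had a log2 fold change of -0.09 (FDR 0.467).

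Of the 7 genes of the MuvB core, B-Myb and FoxM1, which with E2F4 or the pocket proteins form the DREAM complex and its activating counterpart, Mybl2 was called by the thresholds of the study. Mybl2, the gene of B-Myb and a classical E2F target, had a log2 fold change of 1.81 (FDR 0.00128), and was not called without replicate 2 of NF-YA cKO. At an FDR under 0.05, Lin9 (0.74) and Lin54 (0.46) also rose and Lin37 fell (-0.98), while Foxm1 (0.56, FDR 0.0717), Lin52 (0.17) and Rbbp4 (0.03) did not pass. The 3 ubiquitin ligase subunits known to bind E2F proteins all rose at that limit, with log2 fold changes of 1.09 for Skp2, 1.08 for Ccnf and 0.40 for Fzr1, the gene of Cdh1. Skp2 and Ccnf were called by the thresholds of the study, neither was without replicate 1, 2 or 3 of NF-YA cKO or replicate 1 of NF-YA fl/fl, and Skp2 alone was without replicate 3 of NF-YA fl/fl.

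The target genes of E2F had larger log2 fold changes than the E2f genes themselves. Of 36 G1/S targets of E2F, 27 were called higher and 0 lower by the thresholds of the study, against 4.65% and 7.67% of tested genes. At an FDR under 0.05, 33 rose, against 19.7% of tested genes. The list was chosen with earlier results of these data known. All 36 had a positive log2 fold change, with a median of 1.23 against -0.02 over all tested genes and 0.09 over the E2f and Tfdp genes. The largest were those of Rrm2 (1.71), the ribonucleotide reductase subunit of S phase, and of the licensing genes Cdc6 (1.65) and Mcm5 (1.63). Cdk2 (0.11) and Tyms (0.15) had the smallest and did not pass. The count called fell to 11, 8 and 11 without replicate 1, 2 or 3 of NF-YA cKO, to 13 without replicate 1 of NF-YA fl/fl, and to 7 or 9 with limma on log2(TPM + 1) or log2(TPM + 0.1), while the median stayed between 1.07 and 1.42 over all fits.

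Of 20 G2/M genes, which follow later in the cycle under MuvB complexes, 15 were called higher and 0 lower, with a median of 1.25. Over all tested genes 4.65% were called higher and 7.67% lower. Bub1b (1.58), Aurka (1.47) and Ccnb1 (1.46) had the largest log2 fold changes and Cenpf (0.53), Mki67 (0.55, FDR 0.131) and Cenpe (0.90) the smallest. With limma, without any 1 of the NF-YA cKO libraries, or without replicate 1 of NF-YA fl/fl, 1 gene (Aurka) was called. In NF-YA fl/fl, replicate 2 had the highest level of most of these genes, as it had for E2f1, E2f5, E2f7, E2f8 and Tfdp1.

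Of the 8 genes through which E2F1 can promote apoptosis, 6 were tested and none was called by the thresholds of the study in the main edgeR fit. At an FDR under 0.05, 1 gene, which is not reported here, rose and 1 fell, against 19.7% and 18.9% of tested genes. The gene that fell was Pmaip1 (-1.92, FDR 0.0125), which encodes the BH3-only protein Noxa. The log2 fold changes of Apaf1 (0.00), Bbc3 (0.01) and Bcl2l11 (-0.37) did not pass, and Trp73 and Hrk had too few counts. Pmaip1 was called by the thresholds of the study with DESeq2, limma on log2(TPM + 0.1), no filter, and without replicate 2 of NF-YA fl/fl.

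Of the 12 partners of E2F6 in PRC1.6, Cbx3 was called higher (1.03, FDR 0.00165), and in no fit that left out 1 library other than replicate 2 of NF-YA fl/fl. At an FDR under 0.05, 7 rose and 1 fell, against 19.7% and 18.9% of tested genes. Pcgf6 (0.64) and Wdr5 (0.56) were next to Cbx3 at the top. Mga (-0.31), Rybp (-0.49, FDR 0.0993) and Ring1 (-0.25, FDR 0.390) were at the bottom. Of 5 germline genes known to be silenced by E2F6, only Stag3 had enough counts to be tested, at 1.15 to 1.36 CPM in the NF-YA cKO libraries and 0.879 to 1.29 CPM in the NF-YA fl/fl libraries (log2 fold change 0.20, FDR 0.547). Slc25a31, Smc1b, Tuba3a and Tuba3b had at most 9 counts in any library.

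**Figure D4:**
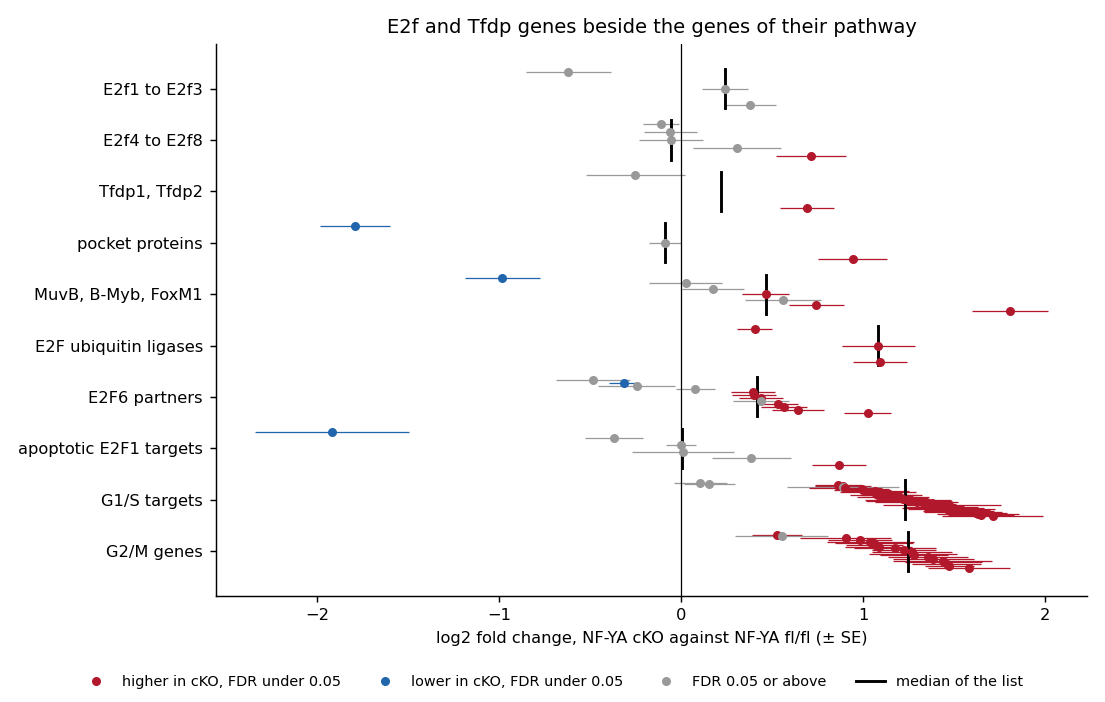
Log2 fold change with SE (horizontal axis) of each tested gene in the member groups and the lists around them, coloured by direction at an FDR under 0.05, with the list median as a black line. The E2f and Tfdp genes lie between -0.62 and 0.71, whereas the G1/S targets have a median of 1.23 and the G2/M genes of 1.25.

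The profiles of the members over the 6 libraries were matched with those of 9446 other tested genes whose mean reached 10 CPM, by the root mean square distance of log2 CPM centred on its mean. The nearest gene was Strn for E2f1 (distance 0.03), Plce1 for E2f2 (0.09), Slc19a2 for E2f3 (0.02), Atxn7l3 for E2f4 (0.02), Lrrc16a for E2f5 (0.03), Marc2 for E2f6 (0.03), Ift74 for E2f7 (0.04), Bora for E2f8 (0.07), Ets1 for Tfdp1 (0.03) and Tjap1 for Tfdp2 (0.06). Next were Anxa2 and Rnpc3 for E2f1, Lurap1l and Nab2 for E2f2, Nom1 and Dph6 for E2f3, Tmed10 and Zc3h7b for E2f4, and Rab8b and Ttc21b for E2f5. For the remaining members they were Cbfb and N4bp2l2 (E2f6), Asap3 and Prcp (E2f7), Dlg5 and 1810026B05Rik (E2f8), Tpm3 and Mcph1 (Tfdp1), and Cirbp and Polr2a (Tfdp2). None of these 30 genes is in the G1/S or G2/M lists. The distance keeps the size of the log2 fold change, whose median was 1.23 and 1.25 in these lists. Their genes could thus hardly be near a member, and no conclusion is drawn from their absence.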

How the data were processed

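RNA was measured in 6 SC libraries, 3 per genotype, grouped by the labels. The authors used Bowtie2 to align reads against mm10 transcripts and RSEM for quantification. The tables they deposited hold expected counts without normalization, TPM, which keeps no depth, and the percent of its gene's TPM for every transcript. The deposited FPKM were not used. Counts were rounded, a gene needed over 10 counts in 2 or more libraries, and genotypes were compared with edgeR 4.0.16 (TMM, quasi-likelihood test, R 4.3.3), with Benjamini-Hochberg adjustment (FDR) over all 17348 tested genes. CPM use TMM library sizes. The fit was tested on simulated counts. Totals were 26936230 to 41118984 counts, and 3 libraries per genotype limit the precision. Alternatives were DESeq2 1.42.0, its size factors, filterByExpr, no filter, limma 3.58.1 on log2(TPM + 1) or log2(TPM + 0.1), an FDR under 0.05, the replicate number as a block, and each library left out. Leaving out libraries for transcript shares was added after seeing the data. Shares of transcripts were compared with exact permutation tests (scipy 1.17.1). Members and lists were chosen with earlier results of these data known. All members and Nfya were named, all genes of lists of up to 8, of longer lists the 3 largest and 3 smallest log2 fold changes, and the 3 genes nearest to each member, except that 3 genes are not reported here. Gene coordinates are from GENCODE (GRCm38), promoters from RefSeq, and plots were drawn with matplotlib 3.10.9.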

Additional observations from a re-analysis of the deposited data

How the results depend on the processing

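No member was called by the thresholds of the study in any alternative that kept them, and an FDR under 0.05 called 2 members higher. That limit gave 1 pocket protein, 3 genes of the MuvB list, 1 apoptotic gene and 7 E2F6 partners higher, and 1 MuvB gene, 1 apoptotic gene and 1 E2F6 partner lower. With limma on log2(TPM + 1) and log2(TPM + 0.1), 7 and 9 of the G1/S targets, 1 and 1 of the G2/M genes, 0 E2F6 partners and 0 ligase subunits were called higher, and filterByExpr also called 0 E2F6 partners. A MuvB gene was called lower (1) with DESeq2, its size factors in edgeR, filterByExpr and limma on log2(TPM + 0.1), and an apoptotic gene (1) with DESeq2, no filter and limma on log2(TPM + 0.1). Leaving out 1 library gave 8 to 31 G1/S targets, 1 to 18 G2/M genes, 0 to 1 pocket protein, 0 to 1 MuvB gene, 0 to 1 apoptotic gene, 0 to 1 E2F6 partner and 0 to 2 ligase subunits higher, and 0 to 1 apoptotic gene lower. The activator share differed by -0.90 to 0.64 percentage points, turning to 0.49, 0.64 and 0.19 without replicate 1 of NF-YA cKO and replicates 1 and 2 of NF-YA fl/fl. The log2 fold change turned for E2f4 (-0.16 to 0.11) and Tfdp2 (-0.44 to 0.16) without replicate 3 and for E2f8 (-0.20 to 0.14) without replicate 2 of NF-YA fl/fl. The difference of the E2f8 leading transcript share (-6.27 to 1.70) turned without replicate 2 of NF-YA cKO and, at 1.17, without replicate 3 of NF-YA fl/fl. The causes were not tested beyond fewer libraries entering the fit. The replicate numbers share only a number: same-numbered libraries deviated together with correlations of 0.267, -0.14 and 0.0793. With the replicate block 27 G1/S targets, 15 G2/M genes and 0 members were called, and the log2 fold changes of E2f5 and Tfdp1 were 0.74 (FDR 0.0370) and 0.71 (FDR 0.0162).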
